A study of Danio rerio with 15 samples.

Results

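The genes described here encode proteins of the cytosolic ribosome. They were measured by poly(A) RNA-seq in endothelial cells (positive for kdrl) of zebrafish, taken 28 hours post fertilization. They were chosen by name alone, by symbols that begin with rpl or rps and a number, including the acidic stalk proteins and the laminin receptor gene. The S6 kinases and genes marked by an l or l1 suffix were left out. At least 10 counts in 2 or more libraries were required. The set is not complete, since no member was named RPL36A and RPL36AL was left out by its suffix. This gave 78 genes of the 32105 rows of the count table. Of these, 43 encode proteins of the large ribosomal subunit, 34 encode proteins of the small subunit, and 1, rps19bp1, is named for a protein that binds RPS19 and is not itself a ribosomal subunit. The name pattern matched 96 rows, of which 11 were kinases, 6 carried the suffix and 1 was under the count minimum. Every one of the 78 genes reached 10 counts in all 15 libraries. The least counted member, rps19bp1, had 1292 counts in all, and the row left out by the minimum had 37.

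The embryos were sf3b1 mutants, siblings of the mutants, or wildtype, and every embryo overexpressed Stat3, either the constitutively active form (CA-Stat3) or the wildtype protein (WT-Stat3). Each genotype was represented by 3 libraries with CA-Stat3 and 2 with WT-Stat3, which gave 6 groups. The labels give neither the sf3b1 alleles of mutants and siblings, nor the promoter and onset of Stat3 overexpression, nor the number of embryos behind a library, and there were no embryos without added Stat3. Nothing in the labels says that replicates came from separate clutches, so the p-values rest on the spread seen among these libraries, and that spread may be technical. These are bulk samples, in which fewer cells of a type and less RNA per cell cannot be told apart.

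Ribosomal proteins assemble with ribosomal RNA into a small subunit, which decodes the mRNA, and a large subunit, which joins the amino acids. Their mRNAs are among the most abundant of a growing cell, begin with a short pyrimidine tract, and are translated together under control of the mTORC1 kinase and the RNA-binding protein LARP1. In people, loss of a single copy of several of these genes impairs red blood cell production, in Diamond-Blackfan anaemia. Sf3b1 is a core protein of the spliceosome, and Stat3 is a transcription factor of cytokine signalling.

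Library totals were 3625121 to 8170371 counts. SF3B1 itself had 108, 92.3 and 82.0 CPM (counts scaled to the size of a library, with TMM factors) in the mutant CA-Stat3 libraries and 93.3 and 105 CPM in the mutant WT-Stat3 libraries, against 168, 157 and 172 CPM in sibling CA-Stat3, 167 and 157 CPM in sibling WT-Stat3, 208, 198 and 203 CPM in wildtype CA-Stat3 and 185 and 170.0 CPM in wildtype WT-Stat3 libraries. Every mutant library was below every sibling and wildtype library. Mutant WT-Stat3 replicate 2 stood apart: it was the shallowest library, a single row (zgc:158463) held 39.5% of its counts against 16.3% to 27.0% in the other 14, and its TMM factor was 0.793 against 0.905 to 1.09. The summed marker levels that follow are CPM on library totals, without TMM factors. Of 10 macrophage and neutrophil marker genes, 10 were called lower in mutants than in wildtype, with summed levels of 337 to 562 CPM in mutant CA-Stat3 and 92.4 to 348 CPM in mutant WT-Stat3, against 2277 to 2571 CPM in wildtype CA-Stat3 and 1236 to 2472 CPM in wildtype WT-Stat3 libraries. One marker among these, fcer1g, was at 0 counts in mutant WT-Stat3 replicates 1 and 2. Of 11 erythroid marker genes 7 were called higher in mutants than in wildtype (median log2 fold change 1.66) and 4 higher than in siblings (median 0.43). Their summed levels were 1841 to 3671 CPM in mutant CA-Stat3 and 1369 to 1710 CPM in mutant WT-Stat3 libraries. Wildtype libraries had 678 to 1634 CPM with CA-Stat3 and 762 to 1020 CPM with WT-Stat3. Sibling libraries had 838 to 2931 CPM with CA-Stat3 and 1670 to 1895 CPM with WT-Stat3, so mutants and siblings overlapped with both constructs. Of 15 endothelial marker genes 6 were called lower and 1 higher in mutants than in wildtype, and 3 higher and 0 lower than in siblings. Their summed levels were 4169 to 6135 CPM in mutant CA-Stat3 and 4796 to 5791 CPM in mutant WT-Stat3, against 2855 to 4947 CPM in sibling CA-Stat3, 6175 to 7049 CPM in sibling WT-Stat3, 5280 to 6575 CPM in wildtype CA-Stat3 and 7984 to 9043 CPM in wildtype WT-Stat3 libraries. With WT-Stat3, both mutant libraries were below all sibling and wildtype libraries of that construct in these sums on library totals. The TMM factors were 0.793 in mutant WT-Stat3 replicate 2 and 1.09 and 1.04 in sibling WT-Stat3 replicates 1 and 2. Dividing by them raises the sum of that mutant library and lowers those of the siblings. The order against siblings therefore does not hold on the TMM scale. In the TMM-scaled test with WT-Stat3, 3 of the 15 markers were called lower than in wildtype and 0 lower than in siblings. The medians were -0.49 and -0.14, and 5.94% and 3.60% of all genes were called lower. Against siblings 9 of 10 macrophage and neutrophil, 8 of 8 muscle and 6 of 7 neural marker genes were called lower in mutants, and without mutant WT-Stat3 replicate 2 these counts were 9, 3 and 6. Against wildtype 1 of 8 muscle and 4 of 7 neural marker genes were called lower. Of 8 epidermal marker genes 3 were called lower against wildtype (median -0.69) and 1 against siblings (median -0.76), and 0 higher. Their medians against wildtype and siblings were -1.55 and -1.61 with CA-Stat3, and 0.07 and -0.43 with WT-Stat3. With WT-Stat3 alone 0 of 8 muscle genes were called against siblings. Their sums there overlapped, at 36.7 to 160 CPM in mutants and 40.1 to 1690 CPM in siblings. Over all genes 14.8% were called lower and 13.9% higher against wildtype, and 13.9% and 12.4% against siblings. Sibling libraries had 977 to 2622 CPM of the macrophage and neutrophil markers with CA-Stat3 and 1293 to 1323 CPM with WT-Stat3. The part of these cell types in the ribosomal protein results was not tested.

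The share of counts held by the ribosomal protein genes was lowest in the 2 mutant WT-Stat3 libraries. The 78 genes held 2.66%, 2.51% and 2.28% of all counts in the mutant CA-Stat3 libraries and 1.91% and 1.23% in the mutant WT-Stat3 libraries. The sibling libraries gave 2.87%, 2.39% and 2.37% with CA-Stat3 and 2.84% and 2.73% with WT-Stat3, and the wildtype libraries 2.75%, 2.35% and 2.76% with CA-Stat3 and 2.73% and 2.70% with WT-Stat3. Both mutant WT-Stat3 libraries were thus below all 13 others, and the mutant CA-Stat3 libraries overlapped those of siblings and wildtype, with 1 of them, replicate 3, below the lowest sibling and wildtype share. Without the 3 most abundant rows of the table the shares were 3.03% and 2.22% in mutant WT-Stat3 against 3.47% or more in the other 13 libraries.

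**Figure D1:**
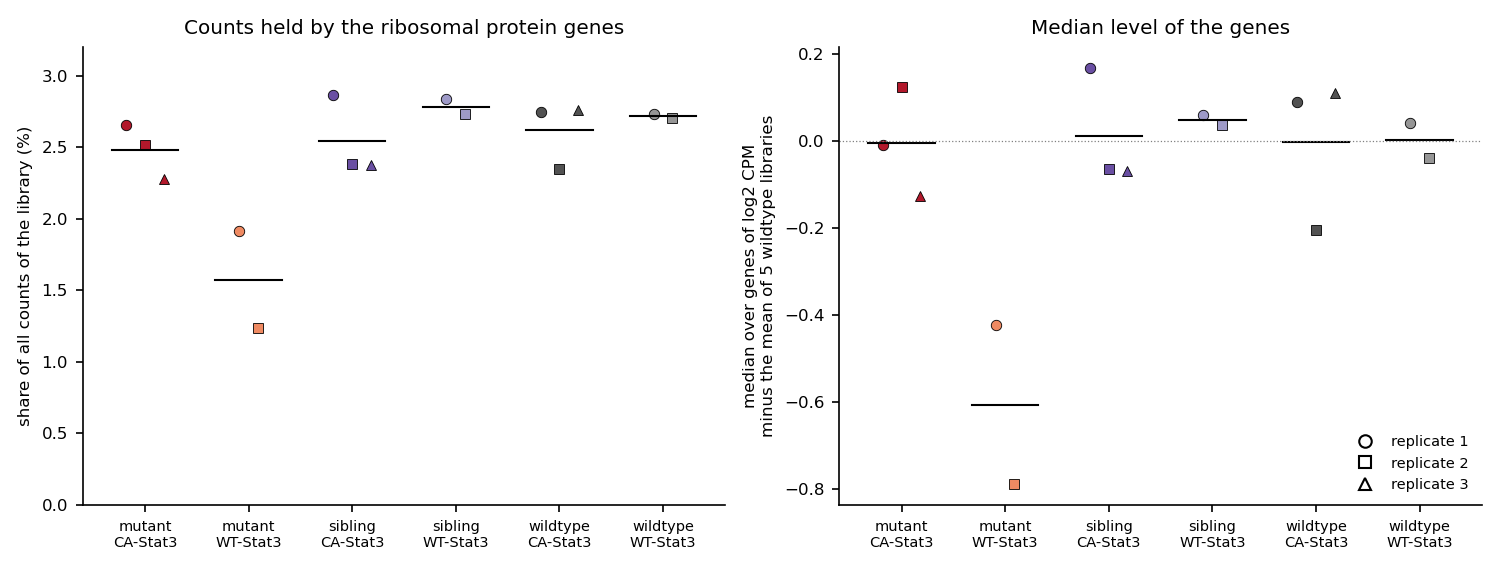
Share of counts held by the 78 ribosomal protein genes (left, percent of all counts of a library) and the median over the 78 genes of log2 CPM minus the mean of the 5 wildtype libraries (right), by library; each point is a library, its shape the replicate number, and lines are group means. The 2 mutant WT-Stat3 libraries sit at 1.91% and 1.23% on the left and at -0.42 and -0.79 on the right, below all other libraries.

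Gene by gene the shift was general in those libraries. Set against the mean of the 5 wildtype libraries, the median ribosomal protein gene was at -0.42 and -0.79 (log2 CPM) in the mutant WT-Stat3 libraries, with 74 and 75 of 78 genes below the wildtype mean. The mutant CA-Stat3 libraries had medians of -0.01, 0.12 and -0.13, and the 10 sibling and wildtype libraries lay between -0.20 and 0.17. The lowest of those 10 was wildtype CA-Stat3 replicate 2, in which all 78 genes lay below the wildtype mean. A common shift of the family by 0.20 thus also occurred within a control group. Over all tested genes the median was -0.005 in mutant WT-Stat3 replicate 1 and -0.11 in replicate 2, the lowest of all libraries. Over 4226 other genes, at or above the lowest mean level of a subunit gene, it was -0.03 and -0.004 in these 2 libraries.

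The 2 mutant WT-Stat3 libraries differed in how far single genes were from wildtype. In replicate 1 the quartiles of the 78 genes were -0.55 and -0.27, and 2 genes were lower than -1. In replicate 2 the quartiles were -1.17 and -0.56, and 28 genes were lower than -1. RPL29, a protein of the outer face of the large subunit, was at -2.25 in replicate 2, while RPLP0, which carries the tip proteins of the ribosomal stalk, and RPSA2, the laminin receptor gene of the small subunit, were at 0.26 and 0.20. In replicate 1 these 3 genes were at -0.79, -0.28 and -0.02. In wildtype CA-Stat3 replicate 2 they were at -0.43, -0.11 and -0.09, so RPL29 was the lowest of the 3 in a control library too. Among sibling and wildtype libraries RPL29 ranged from -0.43 to 0.46. RNA quality and transcript length were not tested as sources of these differences. The within-group SD of log2 CPM of the median member was 0.29 in mutant WT-Stat3, against 0.07 in sibling WT-Stat3, 0.07 in wildtype WT-Stat3 and 0.14 to 0.18 in the 3 CA-Stat3 groups.

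**Figure D2:**
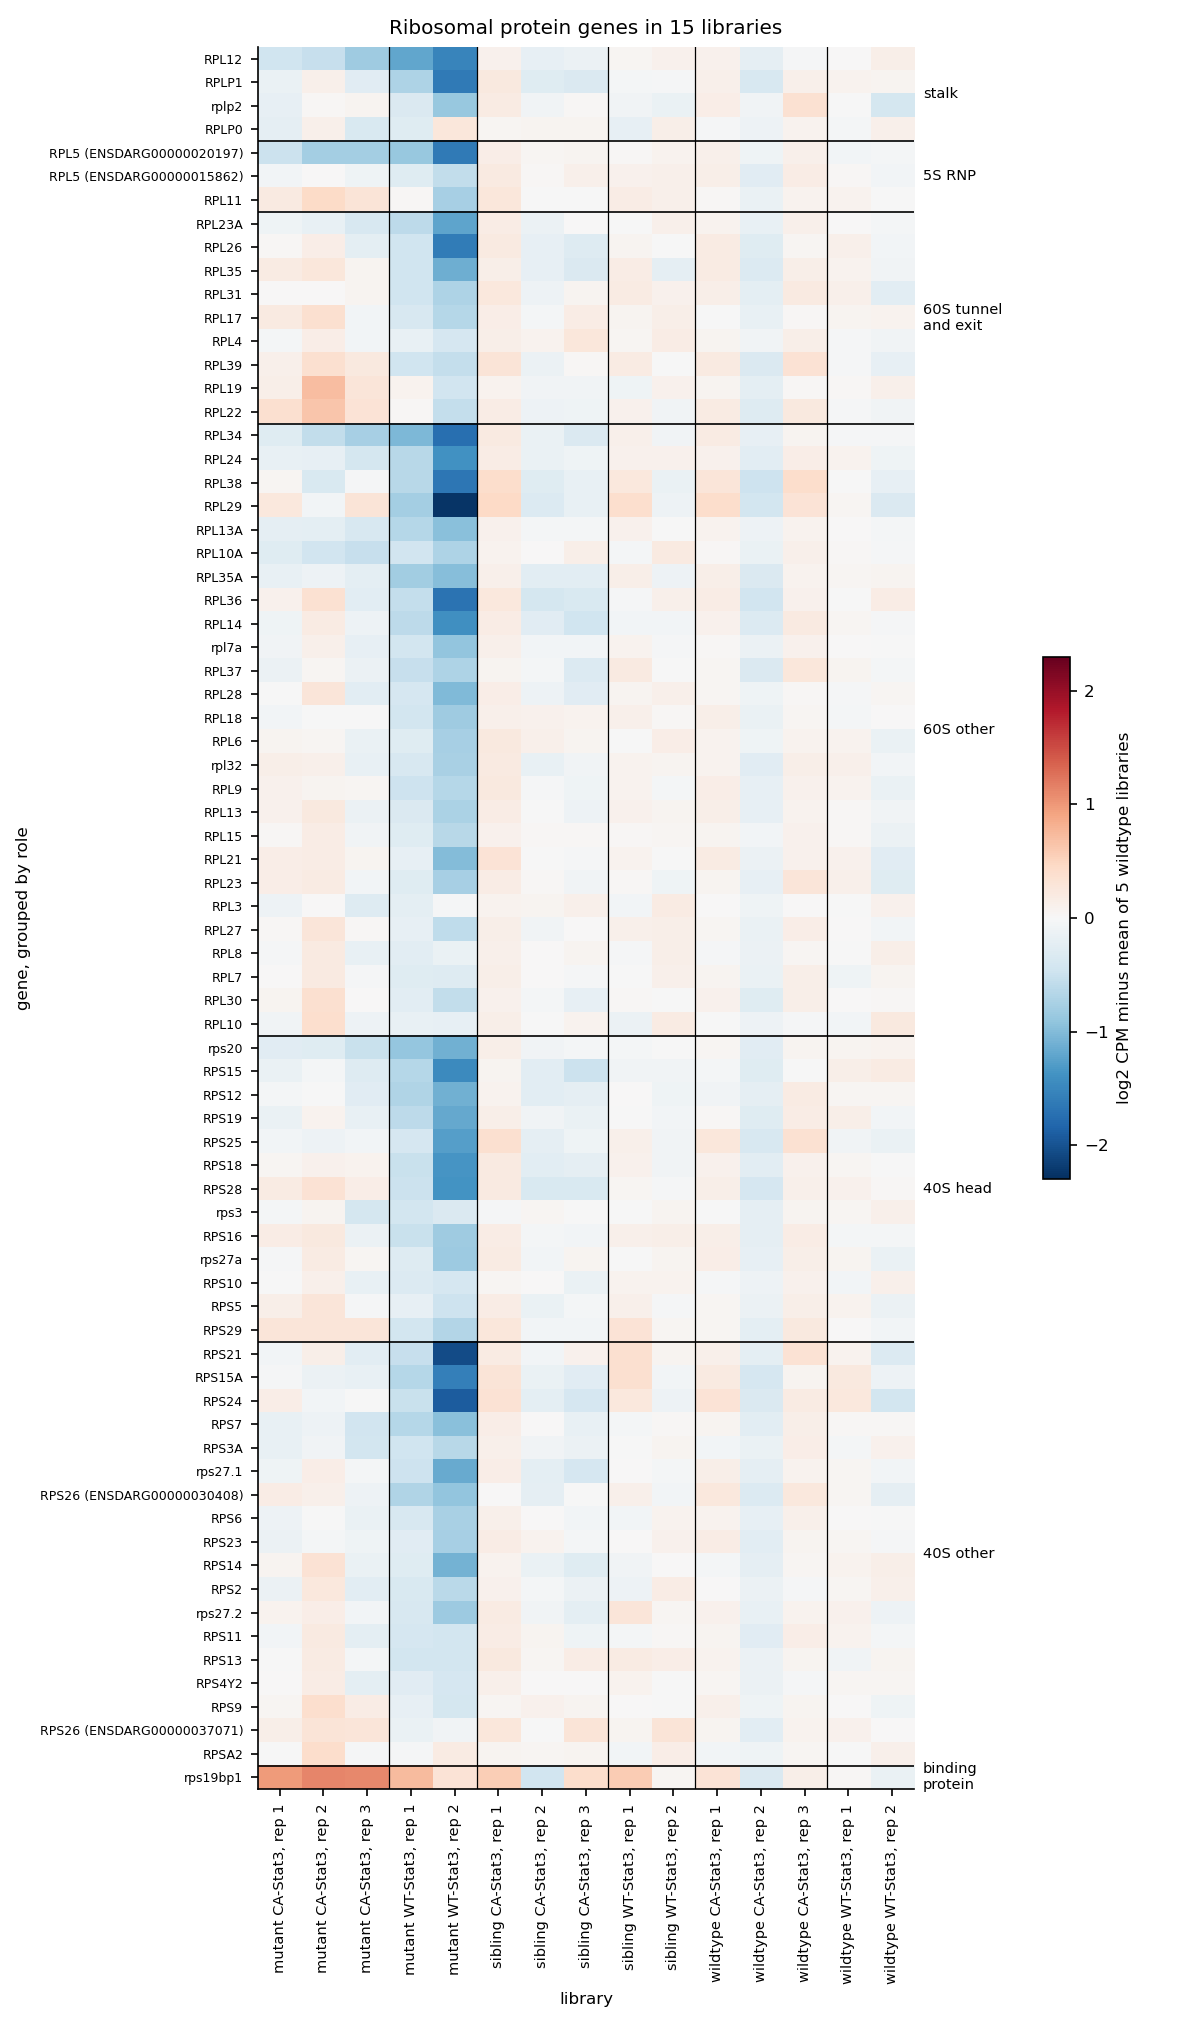
Log2 CPM minus the mean over the 5 wildtype libraries (colour, blue lower and red higher) in 15 libraries (columns), with genes in rows grouped by role and ordered within a role by their mean over the mutant libraries; 4 of the 78 genes are not drawn. The 2 mutant WT-Stat3 columns are blue for most genes, and the row of rps19bp1 at the bottom is red in all 5 mutant columns.

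In the comparison of mutant with wildtype embryos, averaged over both constructs, 24 of 78 ribosomal protein genes (30.8%) were called lower (edgeR quasi-likelihood test, Benjamini-Hochberg adjusted p under 0.05 over 18020 genes). The 1 member called higher was rps19bp1, which does not encode a protein of either subunit. Over all genes tested 14.8% were called lower and 13.9% higher, 28.7% in all. The median log2 fold change was -0.28 for the ribosomal protein genes and -0.03 for all genes, and 73 of the 78 were below 0. Against siblings, 29 of 78 (37.2%) were called lower and 0 higher, beside 13.9% lower and 12.4% higher over all genes (26.2% in all), with a median of -0.33, and 74 members were below 0. At an unadjusted p under 0.05 there were 41 members against wildtype, beside 40.2% of all genes, and 50 against siblings, beside 38.8%. Both comparisons use the same mutant libraries. Of the genes called lower, 22 were called in both, which is 91.7% of the 24 and 75.9% of the 29.

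The counts depended on single libraries, most on the 2 mutant WT-Stat3 ones. Without mutant WT-Stat3 replicate 2 the ribosomal protein genes called lower were 11 against wildtype (9.47% of all genes) and 9 against siblings (8.43% of all genes), with medians of -0.20 and -0.21. Without mutant WT-Stat3 replicate 1 they were 50 in each comparison, beside 16.1% and 14.8% of all genes. Against siblings the count was also 12 without mutant CA-Stat3 replicate 3 and 19 without mutant CA-Stat3 replicate 2, beside 11.2% and 11.1% of all genes. It was 12 and 18 without sibling WT-Stat3 replicates 1 and 2 (11.2% and 9.27% of all genes), and 13 without sibling CA-Stat3 replicate 1 (13.2%). With the lone library of a group assumed to vary like the other groups, 9 genes were called lower in both comparisons without mutant WT-Stat3 replicate 2: RPL5 (ENSDARG00000020197), RPL10A, RPL12, RPL13A, RPL23A, RPL24, RPL34, RPS7 and rps20. Siblings and wildtype did not separate: 0 of 78 genes were called between them, with a median of 0.02, and 0% of all genes were called. At an unadjusted p under 0.05 there were 0 members, beside 9.50% of all genes. DESeq2 called 12 of all genes in that comparison and limma voom 0.

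In the embryos with WT-Stat3, 26 of 78 ribosomal protein genes were called lower in mutant than in wildtype libraries, beside 5.94% of all genes, and 31 were called lower than in siblings, beside 3.60% of all genes; 0 were called higher, beside 6.14% and 3.88% of all genes. In either direction 12.1% and 7.48% of all genes were called. At an unadjusted p under 0.05 there were 57 and 60 members, beside 28.2% and 25.0% of all genes. The medians were -0.57 and -0.63. These counts rest on 2 libraries a group. They were 3 and 2 without mutant WT-Stat3 replicate 2 (1.13% and 0.327% of all genes) and 50 and 51 without mutant WT-Stat3 replicate 1 (8.34% and 6.35%). Against wildtype they were 10 and 13 without wildtype WT-Stat3 replicates 1 and 2, beside 3.06% and 2.17% of all genes, and against siblings 6 and 7 without sibling WT-Stat3 replicates 1 and 2, beside 1.64% and 0.799%. The median without mutant WT-Stat3 replicate 2 was -0.42 against wildtype and -0.47 against siblings, with 75 of 78 genes below 0 in each.

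In the embryos with CA-Stat3, 2 of 78 genes were called lower and 1 higher in mutant than in wildtype libraries, beside 7.43% and 7.26% of all genes, and 3 were called lower and 1 higher than in siblings, beside 8.31% and 7.49%. In either direction 14.7% and 15.8% of all genes were called. The medians were -0.01 and 0.01. These calls were RPL5 (ENSDARG00000020197) and RPL12 lower and rps19bp1 higher in both comparisons, and RPL10A lower against siblings. The counts in either direction against wildtype were 0 without mutant CA-Stat3 replicate 2 or 3 (7.68% and 8.96% of all genes), 1 without wildtype CA-Stat3 replicate 3 (9.11%) and 5 without mutant CA-Stat3 replicate 1 or mutant WT-Stat3 replicate 1 (15.4% and 15.4%). Those against siblings were 1 without mutant CA-Stat3 replicate 2 or 3 (7.62% and 8.27%) and 2 without any 1 of the 3 sibling CA-Stat3 libraries (9.86% to 14.1%). Leaving both mutant WT-Stat3 libraries out of the fit left 3 and 4 calls, the same counts as in the full fit. The share of all genes called in that refit is not given here, so these counts are not set against a background.

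The dependence of the mutant effect against wildtype on the construct was tested directly. It was called for 0 of 78 genes and for 0% of all genes by edgeR. The effect was higher with CA-Stat3 than with WT-Stat3 for 77 of the 78 genes, with a median difference of 0.56 on the log2 scale, and 39 of them had an unadjusted p under 0.05, beside 5.16% of all genes. DESeq2 called 1 of all genes and limma voom 0. Leaving out each library in turn gave median differences of 0.41 to 0.86. The mutant WT-Stat3 group held only 2 libraries, and replicate 2 of these stood apart as described above.

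**Figure D3:**
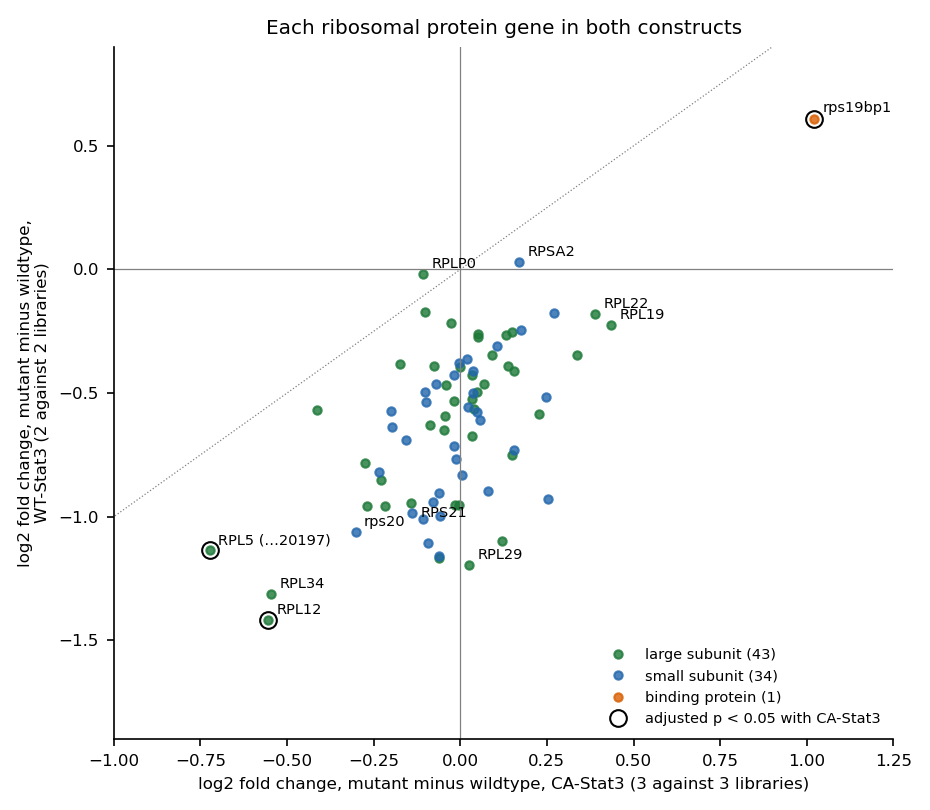
Log2 fold change of each ribosomal protein gene, mutant minus wildtype, in CA-Stat3 embryos (horizontal, 3 against 3 libraries) and in WT-Stat3 embryos (vertical, 2 against 2 libraries); colours give the subunit, rings mark an adjusted p under 0.05 with CA-Stat3, and the dotted line marks equal change in both. All but RPSA2 and rps19bp1 lie below 0 on the vertical axis, while the horizontal values are spread on both sides of 0.

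Among the 4 genes of the ribosomal stalk, the flexible arm of the large subunit that recruits the translation factors, 2 fell in mutants and 2 were not called. Over all genes 14.8% were called lower against wildtype. RPL12, which sits at the base of the stalk on the ribosomal RNA, had 255, 241 and 198 CPM in mutant CA-Stat3 and 152 and 123 CPM in mutant WT-Stat3 libraries. Its levels were 376, 306 and 321 CPM in sibling CA-Stat3, 359 and 377 CPM in sibling WT-Stat3, 374, 304 and 342 CPM in wildtype CA-Stat3 and 351 and 386 CPM in wildtype WT-Stat3 libraries. All 5 mutant libraries were below all 10 others. The log2 fold change over both constructs was -0.99 ± 0.12 (SE) against wildtype (edgeR adjusted p = 3.47e-05) and -0.97 ± 0.12 against siblings (adjusted p = 5.01e-05), and every refit without 1 library kept both calls. With WT-Stat3 alone it fell by 1.42 ± 0.20 against each (edgeR adjusted p = 0.000371 for wildtype and 0.000504 for siblings), again in every such refit. With CA-Stat3 alone RPL12 fell by 0.55 ± 0.16 against wildtype (adjusted p = 0.0249) and by 0.53 ± 0.16 against siblings (adjusted p = 0.0307). The first of these calls was lost without mutant CA-Stat3 replicate 2 or 3 or wildtype CA-Stat3 replicate 1 or 3 (log2 fold change -0.58 to -0.45, edgeR adjusted p 0.061 to 0.12), and the second without mutant CA-Stat3 replicate 2 or 3 or sibling CA-Stat3 replicate 1 (-0.56 to -0.42, adjusted p 0.0725 to 0.142).

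RPLP1, an acidic protein of the stalk tip, had 630.1, 753 and 586 CPM in mutant CA-Stat3 and 427 and 226 CPM in mutant WT-Stat3 libraries, against 816, 575 and 557 CPM in sibling CA-Stat3, 679.8 and 682 CPM in sibling WT-Stat3, 755, 544 and 755 CPM in wildtype CA-Stat3 and 735 and 730.1 CPM in wildtype WT-Stat3 libraries. It was low in the 2 mutant WT-Stat3 libraries and within the range of the other genotypes in the mutant CA-Stat3 libraries. Over both constructs it fell by 0.61 ± 0.17 against wildtype (edgeR adjusted p = 0.0144), a call lost without mutant WT-Stat3 replicate 2 (-0.41, adjusted p = 0.0775). With WT-Stat3 alone it fell by 1.17 ± 0.27 (edgeR adjusted p = 0.0118), and without that library it was at -0.78 (adjusted p = 0.124). RPLP0, which joins the tip proteins to the ribosomal RNA, had 729.7, 913 and 660.2 CPM in mutant CA-Stat3 and 689 and 1006 CPM in mutant WT-Stat3 libraries, and 820.0, 774 and 886 CPM in wildtype CA-Stat3 and 809.9 and 905 CPM in wildtype WT-Stat3 libraries. Its highest value of all 15 libraries was in mutant WT-Stat3 replicate 2, the library in which most of the family was lowest, and its log2 fold change was -0.06 ± 0.13 (edgeR adjusted p = 0.76). The other tip protein, rplp2, was at -0.28 ± 0.14 and was not called (edgeR adjusted p = 0.149).

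RPL5 and RPL11 bind the 5S ribosomal RNA, and outside the ribosome this particle binds and inhibits Mdm2, the negative regulator of p53. The table holds 2 genes named RPL5, and they differed. The gene ENSDARG00000020197 had 237, 193 and 194 CPM in mutant CA-Stat3 and 182 and 107 CPM in mutant WT-Stat3 libraries. It had 372, 342 and 348 CPM in sibling CA-Stat3, 338 and 353 CPM in sibling WT-Stat3, 360.4, 309 and 359.9 CPM in wildtype CA-Stat3 and 317 and 321 CPM in wildtype WT-Stat3 libraries. No mutant library reached the lowest of the others. The log2 fold changes over both constructs were -0.93 ± 0.14 against wildtype (edgeR adjusted p = 0.000147) and -1.01 ± 0.14 against siblings (adjusted p = 9.66e-05), with WT-Stat3 alone -1.14 ± 0.22 (adjusted p = 0.00378) and -1.25 ± 0.22 (adjusted p = 0.003), and with CA-Stat3 alone -0.72 ± 0.17 (adjusted p = 0.0107) and -0.77 ± 0.17 (adjusted p = 0.00767). Of these, the CA-Stat3 call against wildtype was lost without mutant CA-Stat3 replicate 2 or 3 (-0.67 in each, edgeR adjusted p 0.0516 and 0.0556), and the other 5 were kept in every refit without 1 library.

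The second RPL5 gene, ENSDARG00000015862, had 384, 403 and 373 CPM in mutant CA-Stat3 and 332 and 269 CPM in mutant WT-Stat3 libraries, against 441, 334 and 448 CPM in wildtype CA-Stat3 and 407 and 382 CPM in wildtype WT-Stat3 libraries. Mutant and wildtype overlapped with CA-Stat3 and did not with WT-Stat3, and the log2 fold change was -0.23 ± 0.12 (edgeR adjusted p = 0.149). Against siblings it fell by 0.35 ± 0.12 (edgeR adjusted p = 0.0398), a call lost in 6 of 15 refits without 1 library, those without mutant CA-Stat3 replicate 2 or 3, mutant WT-Stat3 replicate 2, sibling CA-Stat3 replicate 1 or either sibling WT-Stat3 library (-0.38 to -0.26). RPL11 had 259, 305 and 273 CPM in mutant CA-Stat3 and 228 and 131 CPM in mutant WT-Stat3 libraries, against 227, 201 and 235 CPM in wildtype CA-Stat3 and 237 and 222 CPM in wildtype WT-Stat3 libraries. Its 3 mutant CA-Stat3 values were above all wildtype values, its mutant WT-Stat3 replicate 2 was the lowest of the 15, and its mean change over constructs was the nearest to 0 among the members (-0.00 ± 0.14, edgeR adjusted p = 0.984). Mutants and siblings overlapped with CA-Stat3. Relative to the wildtype mean (log2 CPM), sibling replicate 1 was at 0.27 and mutant replicate 1 at 0.21.

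Because both RPL5 genes are read in the same library, their ratio does not depend on how the library was scaled. ENSDARG00000020197 made up 38.1%, 32.3% and 34.3% of the RPL5 counts in mutant CA-Stat3 and 35.4% and 28.5% in mutant WT-Stat3 libraries. In siblings it made up 44.5%, 45.6% and 44.5% with CA-Stat3 and 44.2% and 44.7% with WT-Stat3, and in wildtype 44.9%, 48.0% and 44.5% with CA-Stat3 and 43.7% and 45.6% with WT-Stat3. All 5 mutant libraries were below all 10 others. The log2 ratio was -0.98 ± 0.23 in mutants, against -0.31 ± 0.03 in siblings and -0.27 ± 0.10 in wildtype (SD, n = 5 each), and the difference averaged over constructs was -0.69 against siblings and -0.73 against wildtype. In a two-sided exact permutation test of genotype within construct each had p = 0.0167, the smallest that the 120 splits allow, and p = 0.0417 after adjustment over the 10 pair tests run. The assignment of reads common to near-identical copies is not stated in the sources used, so the split between copies is uncertain in level.

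**Figure D4:**
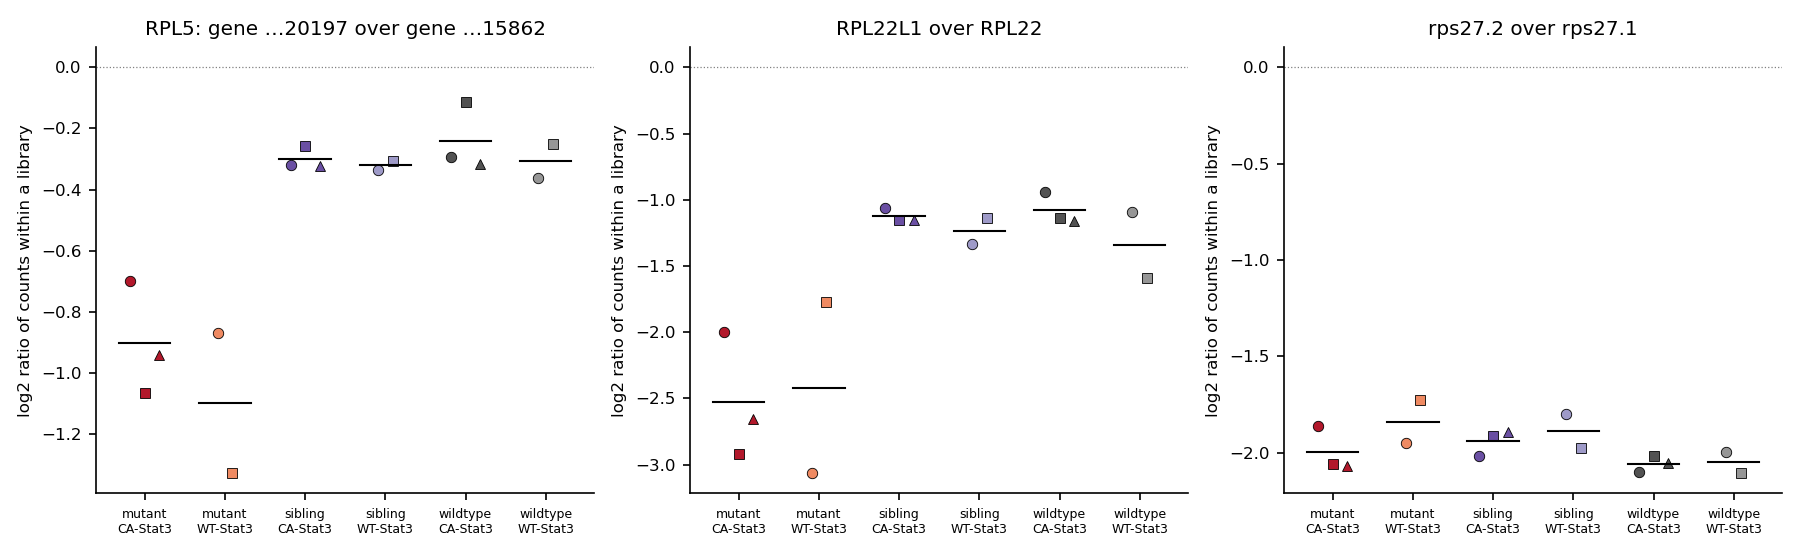
Log2 ratio of counts of 2 gene copies within each library for RPL5 (ENSDARG00000020197 over ENSDARG00000015862), RPL22L1 over RPL22, and rps27.2 over rps27.1, by group; points are libraries, shapes replicate numbers and lines group means. The mutant libraries lie below all sibling and wildtype libraries in the first 2 panels and overlap them in the third.

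Of the 9 genes of the exit tunnel and its rim, where the new protein chain leaves the large subunit, 1 (11.1%) was called lower in mutants against wildtype and 0 higher, with a median of -0.18. The share called lower was not above the 14.8% of all genes. The called gene was RPL23A, which docks the signal recognition particle, at -0.54 ± 0.13 (edgeR adjusted p = 0.0068). RPL22, which also binds RNA outside the ribosome, had 179.7, 215 and 172 CPM in mutant CA-Stat3 and 141 and 94.5 CPM in mutant WT-Stat3 libraries, against 157, 112 and 163 CPM in wildtype CA-Stat3 and 137 and 131 CPM in wildtype WT-Stat3 libraries. RPL19, at the exit rim, had 580.0, 859.9 and 643 CPM in mutant CA-Stat3 and 558 and 387 CPM in mutant WT-Stat3 libraries, against 549.9, 452 and 539 CPM in wildtype CA-Stat3 and 534 and 572 CPM in wildtype WT-Stat3 libraries. Both genes were higher in every mutant CA-Stat3 library than in every wildtype CA-Stat3 library, at 0.39 ± 0.18 for RPL22 and 0.43 ± 0.18 for RPL19, and neither difference passed the test (edgeR adjusted p = 0.173 and 0.11).

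RPL22L1, a close relative of RPL22 that is known in mice to replace it in the ribosome, lies outside the name rule because of its suffix. It had 44.8, 28.4 and 27.3 CPM in mutant CA-Stat3 and 16.8 and 27.5 CPM in mutant WT-Stat3 libraries, against 74.9, 57.5 and 58.3 CPM in sibling CA-Stat3, 58.6 and 59.2 CPM in sibling WT-Stat3, 81.9, 51.2 and 72.8 CPM in wildtype CA-Stat3 and 64.1 and 43.3 CPM in wildtype WT-Stat3 libraries. Within each construct every mutant library was below every sibling and wildtype library. It fell by 1.16 ± 0.20 against wildtype (edgeR adjusted p = 0.000479) and by 1.17 ± 0.20 against siblings (adjusted p = 0.00058), and no single left-out library ended either call. RPL22L1 made up 20.0%, 11.7% and 13.7% of the counts of RPL22 and RPL22L1 together in mutant CA-Stat3 and 10.6% and 22.6% in mutant WT-Stat3 libraries, against 28.4% to 32.3% in siblings and 24.9% to 34.2% in wildtype. The log2 ratio of RPL22L1 to RPL22 averaged -2.48 ± 0.57 in mutants, against -1.17 ± 0.10 in siblings and -1.18 ± 0.24 in wildtype (SD, n = 5 each). The construct-averaged differences were -1.29 against siblings and -1.26 against wildtype, each with p = 0.0167 in the exact permutation test and 0.0417 after adjustment over 10 tests. The order of the libraries differed from that of the family: mutant WT-Stat3 replicate 1 had the lowest ratio and replicate 2 the highest of the 5 mutant ones.

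Of the other 27 large-subunit genes, 9 were called lower in mutants than in wildtype and 0 higher, beside 14.8% and 13.9% of all genes. The median was -0.26, and -0.18 without mutant WT-Stat3 replicate 2. RPL34, a small protein of the large subunit, had 173, 143 and 125 CPM in mutant CA-Stat3 and 103 and 63.1 CPM in mutant WT-Stat3 libraries. The other libraries held 244, 189 and 168 CPM in sibling CA-Stat3, 229 and 200.1 CPM in sibling WT-Stat3, 241, 185 and 219 CPM in wildtype CA-Stat3 and 207 and 208 CPM in wildtype WT-Stat3. Mutant CA-Stat3 replicate 1 lay just above sibling CA-Stat3 replicate 3, and every other mutant library was below all sibling and wildtype libraries. It fell by 0.93 ± 0.16 against wildtype (edgeR adjusted p = 0.000446) and by 0.90 ± 0.16 against siblings (adjusted p = 0.000722), and both calls were kept in every refit without 1 library. With WT-Stat3 alone it fell by 1.31 ± 0.25 against wildtype (edgeR adjusted p = 0.00368) and by 1.36 ± 0.25 against siblings (adjusted p = 0.00448), and without mutant WT-Stat3 replicate 2 it was at -1.01 and -1.05 and not called (adjusted p = 0.0529 and 0.0673).

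RPL10A, a protein of the side stalk through which the used transfer RNA leaves, had 196, 173 and 163 CPM in mutant CA-Stat3 and 175 and 144 CPM in mutant WT-Stat3 libraries. It had 251, 237 and 259 CPM in sibling CA-Stat3, 229 and 273 CPM in sibling WT-Stat3, 239.8, 213 and 256 CPM in wildtype CA-Stat3 and 241 and 231 CPM in wildtype WT-Stat3 libraries. All 5 mutant libraries were below all others, and the distance was of like size with both constructs, at -0.41 ± 0.15 with CA-Stat3 (edgeR adjusted p = 0.0676) and -0.57 ± 0.18 with WT-Stat3 (adjusted p = 0.0496). The WT-Stat3 call was lost in 9 of the 15 refits without 1 library, among them those without mutant WT-Stat3 replicate 2 and without wildtype WT-Stat3 replicate 1 or 2, with edgeR adjusted p of 0.0555 to 0.27. Over both constructs it fell by 0.49 ± 0.12 against wildtype (edgeR adjusted p = 0.00491) and by 0.57 ± 0.12 against siblings (adjusted p = 0.00201), and no single left-out library ended these calls. Against siblings with CA-Stat3 alone it fell by 0.49 ± 0.15 (edgeR adjusted p = 0.0333), a call lost without mutant CA-Stat3 replicate 2 or 3 or any 1 sibling CA-Stat3 library (-0.52 to -0.43, adjusted p 0.0613 to 0.131).

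RPL24, which forms a bridge between the subunits, fell by 0.61 ± 0.15 against wildtype (edgeR adjusted p = 0.00551) and by 0.65 ± 0.15 against siblings (adjusted p = 0.00452). Its levels were 197, 194 and 167 CPM in mutant CA-Stat3 and 141 and 83.7 CPM in mutant WT-Stat3 libraries, against 238, 188 and 247 CPM in wildtype CA-Stat3 and 233 and 205 CPM in wildtype WT-Stat3 libraries. Here the mutant WT-Stat3 libraries were the 2 lowest, and with CA-Stat3 mutant and wildtype overlapped. RPL29 had 103, 83.8 and 107 CPM in mutant CA-Stat3 and 50.7 and 18.1 CPM in mutant WT-Stat3 libraries, against 120.5, 70.2 and 78.0 CPM in sibling CA-Stat3 and 114 and 80.4 CPM in sibling WT-Stat3 libraries. With WT-Stat3 it fell by 1.48 ± 0.39 against siblings (edgeR adjusted p = 0.0306), the largest called decrease of a member in any comparison, and this call was lost without mutant WT-Stat3 replicate 2 or sibling WT-Stat3 replicate 1 or 2 (-1.74 to -0.94, adjusted p 0.0559 to 0.247).

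In the head of the small subunit, the domain that swivels as the mRNA moves, 6 of 15 genes were called lower in mutants against wildtype and 0 higher. Over all genes 14.8% were called lower and 13.9% higher. The median was -0.41, and -0.23 without mutant WT-Stat3 replicate 2. The lead was rps20, at 167, 166 and 142 CPM in mutant CA-Stat3 and 108 and 93.8 CPM in mutant WT-Stat3 libraries. It stood at 221, 189.8 and 195 CPM in sibling CA-Stat3, 194 and 199 CPM in sibling WT-Stat3, 208, 169 and 209 CPM in wildtype CA-Stat3 and 209.9 and 213 CPM in wildtype WT-Stat3 libraries. Every mutant library was below every sibling and wildtype library, although 2 of the mutant CA-Stat3 libraries lay within 3 CPM of wildtype CA-Stat3 replicate 2. It fell by 0.68 ± 0.12 against wildtype (edgeR adjusted p = 0.000438) and by 0.66 ± 0.12 against siblings (adjusted p = 0.000769), in every refit without 1 library, and with CA-Stat3 alone it was at -0.30 ± 0.15 and was not called (adjusted p = 0.181).

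RPS19, needed to mature the end of the small ribosomal RNA and the gene most often mutated in Diamond-Blackfan anaemia, had 257, 299.6 and 254 CPM in mutant CA-Stat3 and 186 and 125 CPM in mutant WT-Stat3 libraries, against 291, 233 and 321 CPM in wildtype CA-Stat3 and 313 and 271 CPM in wildtype WT-Stat3 libraries. It was low only in the 2 mutant WT-Stat3 libraries. Over both constructs it fell by 0.48 ± 0.14 against wildtype (edgeR adjusted p = 0.0149), a call lost without mutant WT-Stat3 replicate 2 (-0.35, adjusted p = 0.0831).

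Among the other 19 small-subunit genes 5 were called lower against wildtype and 0 higher, beside 14.8% and 13.9% of all genes. The median was -0.30, and -0.20 without mutant WT-Stat3 replicate 2. RPS15A, a core protein of the subunit, fell by 0.60 ± 0.18 (edgeR adjusted p = 0.0212) and RPS21, one of the shortest proteins of the subunit, was at -0.56 ± 0.21 (adjusted p = 0.0601) against wildtype and fell by 0.72 ± 0.22 against siblings (adjusted p = 0.0218). RPS21 had 47.1, 54.1 and 41.5 CPM in mutant CA-Stat3 and 33.7 and 11.5 CPM in mutant WT-Stat3 libraries, against 55.9, 47.2 and 52.7 CPM in sibling CA-Stat3 and 63.3 and 51.0 CPM in sibling WT-Stat3 libraries, so that mutant WT-Stat3 replicate 2 was lowest by far. The RPS15A call was lost without that library, wildtype CA-Stat3 replicate 1 or wildtype WT-Stat3 replicate 1 (-0.55 to -0.40, edgeR adjusted p 0.0507 to 0.115). The RPS21 call against siblings was lost without mutant WT-Stat3 replicate 2, mutant CA-Stat3 replicate 3 or sibling WT-Stat3 replicate 1 (-0.67 to -0.43, edgeR adjusted p 0.0509 to 0.0914).

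RPS14, the gene of the human 5q- syndrome, had 512, 616 and 443 CPM in mutant CA-Stat3 and 406 and 230.4 CPM in mutant WT-Stat3 libraries, against 476, 427 and 508 CPM in wildtype CA-Stat3 and 519 and 537 CPM in wildtype WT-Stat3 libraries. It was not called, at -0.29 ± 0.15 over both constructs (edgeR adjusted p = 0.168) and -0.73 ± 0.24 with WT-Stat3 (adjusted p = 0.0543). Without mutant WT-Stat3 replicate 2 these values were -0.11 and -0.38. At the other end were RPSA2, at 724, 959 and 712 CPM in mutant CA-Stat3 and 717 and 834 CPM in mutant WT-Stat3, against 693, 683 and 753 CPM in wildtype CA-Stat3 and 725 and 795 CPM in wildtype WT-Stat3 libraries, and RPS9, which affects decoding accuracy. Their log2 fold changes were 0.10 ± 0.12 and -0.03 ± 0.11 (edgeR adjusted p = 0.558 and 0.847). Of the 2 RPS26 genes, which line the mRNA exit, ENSDARG00000030408 fell with WT-Stat3 by 0.71 ± 0.22 against wildtype (edgeR adjusted p = 0.0424), a call lost without mutant CA-Stat3 replicate 2, mutant WT-Stat3 replicate 2 or either wildtype WT-Stat3 library (-0.89 to -0.61), and ENSDARG00000037071 was at -0.18 ± 0.21 (adjusted p = 0.628). The log2 ratio of the second to the first was -1.13 ± 0.33 in mutants, -1.30 ± 0.16 in siblings and -1.52 ± 0.17 in wildtype, and the differences did not pass the exact permutation test (adjusted p = 0.352 against siblings and 0.0667 against wildtype). The ratio of rps27.2 to rps27.1 was -1.93 ± 0.14 in mutants, -1.92 ± 0.08 in siblings and -2.05 ± 0.05 in wildtype (exact permutation test, adjusted p = 0.917 against siblings and 0.167 against wildtype).

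The gene rps19bp1, named for a protein that binds RPS19 and in human cells also regulates the deacetylase SIRT1, was the only member called higher. It had 20.0, 22.2 and 21.9 CPM in mutant CA-Stat3 and 16.8 and 12.5 CPM in mutant WT-Stat3 libraries. It had 15.0, 7.31 and 13.4 CPM in sibling CA-Stat3, 15.2 and 10.4 CPM in sibling WT-Stat3, 12.6, 7.88 and 11.1 CPM in wildtype CA-Stat3 and 10.2 and 9.06 CPM in wildtype WT-Stat3 libraries. Within each construct every mutant library was above every wildtype library, and with WT-Stat3 mutants and siblings overlapped. It rose by 0.82 ± 0.22 over both constructs (edgeR adjusted p = 0.0116) and by 1.02 ± 0.27 with CA-Stat3 (adjusted p = 0.0194) against wildtype, and by 0.84 ± 0.27 against siblings with CA-Stat3 (adjusted p = 0.0465). The first call was lost without mutant WT-Stat3 replicate 1 or wildtype WT-Stat3 replicate 2 (0.66 and 0.74), the second without any 1 of mutant CA-Stat3 replicates 2 and 3 and wildtype CA-Stat3 replicates 2 and 3 (0.85 to 1.04), and the third in 11 of 15 refits (0.59 to 0.92).

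**Figure D5:**
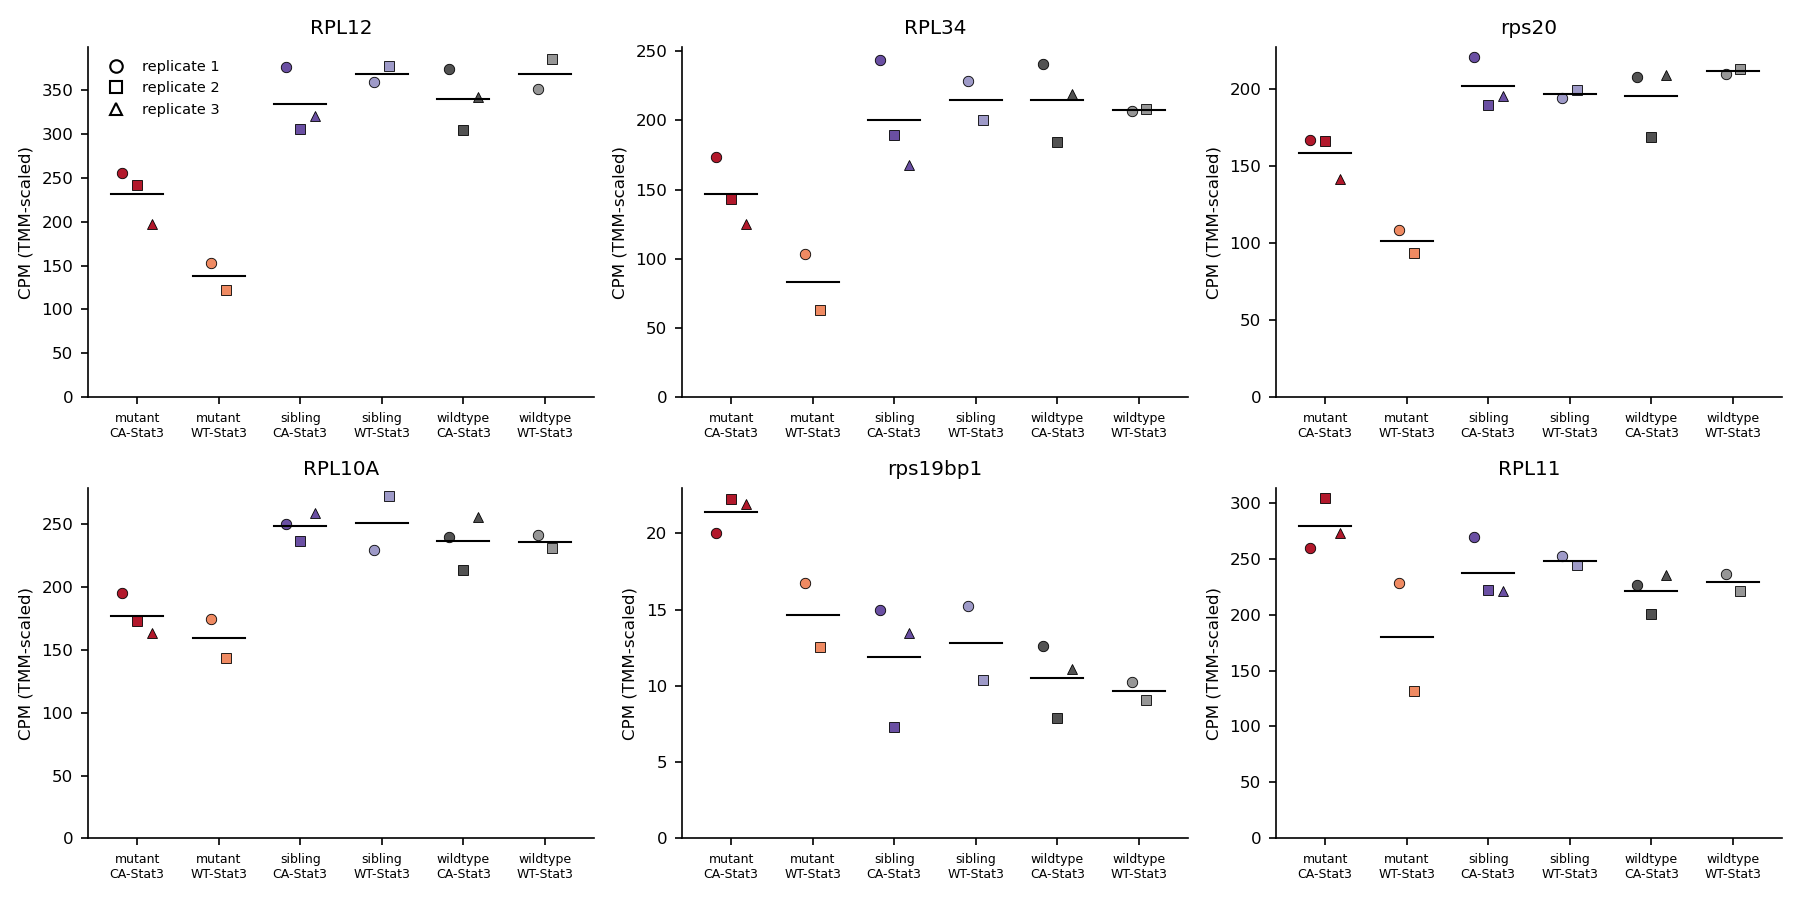
CPM (TMM-scaled, axes from 0) of 6 genes by group; points are libraries, shapes replicate numbers and lines group means. RPL12, RPL10A and rps20 are below all sibling and wildtype libraries in all 5 mutant libraries, RPL34 in 4 of them, rps19bp1 is above wildtype within each construct, and RPL11 is above wildtype, with overlap of siblings, in mutant CA-Stat3 and low in mutant WT-Stat3 replicate 2.

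Asked gene by gene whether every mutant library lay below every wildtype library within both constructs, 6 members met this: RPL5 (ENSDARG00000020197), RPL10A, RPL12, RPL13A, RPL34 and rps20. Over all genes 13.1% did, and 11.7% lay above; rps19bp1 was the 1 member above. Against siblings 8 members lay below, namely both RPL5 genes, RPL10A, RPL12, RPL13A, RPL18, RPL24 and rps20, beside 10.6% of all genes, and 0 lay above, beside 10.3%. These shares of the 78 members were not above the background.

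With the libraries scaled to the ribosomal protein genes themselves, so that a change is relative to the rest of the family, 4 members were called lower and 4 higher against wildtype. RPL12 was at -0.68 (edgeR adjusted p = 0.000759), RPL5 (ENSDARG00000020197) at -0.64 (adjusted p = 0.00195), RPL34 at -0.64 (adjusted p = 0.0028) and rps20 at -0.37 (edgeR adjusted p = 0.0339). Relative to the family RPL19 rose by 0.40 (edgeR adjusted p = 0.0285), RPL22 by 0.40 (adjusted p = 0.0257), RPSA2 by 0.42 (edgeR adjusted p = 0.0403) and rps19bp1 by 1.12 (edgeR adjusted p = 0.000811). On this scale 31.0% of all genes were called, and since the scale centres the members, their count is not read against that share. The choice of this scale was made after the data had been seen, and refits without 1 library were not run on it. In log2 CPM relative to the wildtype mean, RPSA2 was at 0.20 in mutant WT-Stat3 replicate 2, where the median member was at -0.79. In mutant WT-Stat3 replicate 1 it was at -0.02 and the median member at -0.42. In the mutant CA-Stat3 libraries RPSA2 was at -0.01, 0.40 and -0.03, and the median member at -0.01, 0.12 and -0.13.

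CA-Stat3 against WT-Stat3 within a genotype gave 0 called members by edgeR, beside 0% of all genes, in mutants, siblings and wildtype alike. In mutants the median log2 fold change was 0.61 and 64 of 78 genes had an unadjusted p under 0.05, beside 10.2% of all genes. In siblings and wildtype the medians were -0.04 and 0.00, with 0 genes at that level in either, beside 4.18% and 4.02% of all genes. Averaged over genotypes the median was 0.19 and 18 genes had an unadjusted p under 0.05, beside 12.7% of all genes. In mutants DESeq2 called 32 members higher with CA-Stat3. The edgeR median in mutants was 0.41 to 0.85 when each library was left out in turn. This comparison rests on 2 mutant WT-Stat3 libraries, of which replicate 2 stood apart. Over all genes DESeq2 called 56 in mutants, 1 in siblings, 3 in wildtype and 133 averaged over genotypes, and limma voom 0, 0, 0 and 1.

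Of 6 tested genes of ribosome components or their relatives that the name rule leaves out, 1 (RPL7L1) was called higher and 1 (RPL22L1) lower against wildtype. Over all genes 13.9% were called higher and 14.8% lower. RACK1, a scaffold on the small subunit head, was at -0.13 ± 0.12 against wildtype and was not called (edgeR adjusted p = 0.454). FAU, whose product is cleaved into a small-subunit protein, was at -0.32 ± 0.12 against wildtype (edgeR adjusted p = 0.059) and fell by 0.37 ± 0.12 against siblings (adjusted p = 0.0332), a call lost without any 1 of 5 libraries, mutant WT-Stat3 replicate 2 among them. Of other genes with a suffix, rplp2l was at -0.34 ± 0.13 and RPL36AL at -0.44 ± 0.17 (edgeR adjusted p = 0.0712 and 0.0615), and rps27l had 0 counts. RPL7L1 rose: it had 37.6, 63.7 and 43.5 CPM in mutant CA-Stat3 and 48.2 and 34.9 CPM in mutant WT-Stat3 libraries, against 25.7, 20.5 and 24.5 CPM in sibling CA-Stat3, 28.3 and 21.7 CPM in sibling WT-Stat3, 21.4, 18.5 and 22.7 CPM in wildtype CA-Stat3 and 23.9 and 20.7 CPM in wildtype WT-Stat3 libraries. All 5 mutant libraries were above all 10 others. This gene, a relative of RPL7 whose yeast counterpart acts in maturation of the large subunit, rose by 1.06 ± 0.17 against wildtype (edgeR adjusted p = 0.000328) and by 0.88 ± 0.17 against siblings (adjusted p = 0.0016), in every refit without 1 library.

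New ribosomal proteins are escorted to the nucleus and onto the ribosomal RNA by dedicated factors. Of 13 chaperones and importers of ribosomal proteins 8 were called higher in mutants than in wildtype and 0 lower, beside 13.9% and 14.8% of all genes. The median was 0.49, and 0.56 without mutant WT-Stat3 replicate 2. BCCIP, which escorts RPL23, rose by 1.50 ± 0.16 (edgeR adjusted p = 9.89e-06), tsr2, which escorts RPS26 in yeast, by 0.71 ± 0.15 (adjusted p = 0.00192) and the importin IPO7 by 0.49 ± 0.11 (adjusted p = 0.00363). No single left-out library ended these 3 calls. Against siblings 6 were higher and 1, NAP1L1, was lower, beside 12.4% and 13.9% of all genes. The median there was 0.36, and 0.46 without mutant WT-Stat3 replicate 2. With WT-Stat3 alone 2 were called higher against wildtype and 0 against siblings, beside 6.14% and 3.88% of all genes. With CA-Stat3 alone 3 and 4 were called higher, beside 7.26% and 7.49%, and 1 was called lower against siblings, beside 8.31%.

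Other mRNAs begin with the same pyrimidine tract. Of 22 tested genes listed for translation factors and other such mRNAs 3 were called higher and 4 lower against wildtype, with a median of -0.12. These genes were listed by name, and their zebrafish mRNAs were not checked for the tract. Against siblings 2 were higher and 6 lower, with a median of -0.21. Over all genes 13.9% were called higher and 14.8% lower against wildtype, and 12.4% and 13.9% against siblings. EIF3K, an initiation factor subunit, fell by 1.05 ± 0.14 (edgeR adjusted p = 7.01e-05) and eef1da, an elongation factor subunit, by 0.74 ± 0.13 (adjusted p = 0.000561), while npm1a, a nucleolar chaperone, rose by 0.95 ± 0.15 (adjusted p = 0.000233). Each of these 3 calls was kept in every refit without 1 library. Of 27 genes of the mTORC1 and LARP1 pathway that controls such mRNAs 5 were called higher and 0 lower against wildtype, beside 13.9% higher and 14.8% lower over all genes. Against siblings 5 were higher and 3 lower, beside 12.4% and 13.9% of all genes. Without mutant WT-Stat3 replicate 2 the counts were 4 higher and 1 lower against wildtype and 3 and 2 against siblings. Against wildtype larp1b rose by 0.74 ± 0.13 (edgeR adjusted p = 0.000434) and cnbpa, which binds the tract, by 0.68 ± 0.14 (adjusted p = 0.00169), in every refit without 1 library, and eif4ebp1, an inhibitor of cap-dependent initiation, by 0.61 ± 0.16 (adjusted p = 0.00853), a call lost without mutant WT-Stat3 replicate 1 or wildtype WT-Stat3 replicate 2.

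Of the 23 members whose human counterparts are mutated in Diamond-Blackfan anaemia, 8 were called lower against wildtype and 0 higher, with a median of -0.34, and 9 and 0 against siblings. The share of all 78 members called lower against wildtype was 30.8%, and that of all genes 14.8%. Without mutant WT-Stat3 replicate 2 the counts lower were 3 and 2, beside 9.47% and 8.43% of all genes. Among these genes, RPL5 (ENSDARG00000020197) and RPS7, which is needed to process the small ribosomal RNA, were called lower in both comparisons in every refit without 1 library; RPS7 fell by 0.53 ± 0.12 against wildtype (edgeR adjusted p = 0.00467) and by 0.52 ± 0.12 against siblings (adjusted p = 0.00613).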

How the data were processed

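Poly(A) RNA-seq of kdrl-positive cells was deposited as a table of raw read counts per gene for 15 libraries. The submitters' processing notes name STAR 2.4.2a, featureCounts, Picard, DESeq2 and Trim Galore, and the GRCz10 build. Strand setting and the treatment of reads shared by gene copies are not stated there. The table gives Ensembl identifiers, of which 26269 of 32105 had a symbol in the name table used, so zebrafish genes often carry human-style symbols.

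The deposited counts were tested with edgeR 4.0.16 (R 4.3.3; TMM, quasi-likelihood, filterByExpr with a minimum of 10 and a total of 15 counts), with 1 coefficient per group over 15 libraries, 9 residual degrees of freedom and Benjamini-Hochberg adjustment over 18020 genes at 0.05. Standard errors are the log2 fold change divided by the root of F. For log2 CPM the prior count was 2. The scripts were tested on simulated data. Genes named singly are, for the means over constructs, the 6 largest called decreases, up to 4 increases and the 3 members nearest 0; elsewhere the 3 largest called changes each way; always the RPL5, RPL11 and stalk genes, RPS14, RPS19, copies, and genes just outside the name rule; and up to 3 called genes of each list. RPL13A, RPL18, RPL19, RPL22, RPL23A and RPS7 were also named after their values were seen. The members and gene lists were chosen with earlier results of these data known. Alternatives were other scalings, filters, DESeq2 1.42.0, limma 3.58.1 voom, a replicate block, each comparison's own groups and leaving out each library. Pairs of copies were compared by exact permutation of genotype within construct. Library totals of 3625121 to 8170371 counts gave a median of 1635.5 counts per member and library, with a lowest value of 33. No sequence is shown. A few genes are included in the counts and medians and are not reported singly here.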

Additional observations from a re-analysis of the deposited data

How the results depend on the processing

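The count of ribosomal protein genes called in a comparison stayed within 1.5 times its value under most settings, and the exceptions follow. With library totals in place of TMM the calls were 46 against wildtype and 47 against siblings over both constructs, 52 and 58 with WT-Stat3, and 1 against siblings with CA-Stat3; this scaling moves the median of all genes by -0.18, -0.16, -0.28 and -0.32 in the first 4. Scaled to the ribosomal protein genes, a setting chosen after seeing the data, they were 8, 7, 5 and 4, and 3 for CA-Stat3 against WT-Stat3 in mutants, and RPL10A with WT-Stat3 turned to 0.041 against wildtype. DESeq2 gave 41 and 48 with WT-Stat3, beside 2725 and 2007 calls over all genes. It gave 5 against wildtype with CA-Stat3, beside 3164, and 32 between constructs in mutants, beside 56. Limma voom with quality weights gave 13 against siblings with WT-Stat3 and 6 against wildtype with CA-Stat3, beside 537 and 4018 calls over all genes. Fitted on each comparison's own groups, the calls were 19 against siblings over both constructs, 7 and 1 with WT-Stat3, and 1 against siblings with CA-Stat3. Without a filter on low counts, 13 were called between constructs in mutants and 1 averaged over genotypes. The cause of these changes was not tested. Where no calls over all genes stand beside a count in this section, the count shows only how it moved with the setting. Such a count is not read as a result about the family.

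Leaving out each library in turn gave 12 to 50 calls against wildtype and 9 to 50 against siblings over both constructs, 3 to 50 and 2 to 51 with WT-Stat3, 0 to 5 and 1 to 4 with CA-Stat3, 0 to 35 between constructs in mutants, 0 to 2 averaged over genotypes, 0 to 6 for the dependence on construct, and 0 to 0 for siblings against wildtype and for the constructs in siblings and in wildtype. Deviations of same-numbered libraries correlated at -0.15 to 0.34, over 0.1 for some pairs and not for every pair, and the numbers were not taken to pair the libraries. With a replicate block the calls were 33 and 36 over both constructs, 37 and 44 with WT-Stat3, 4 and 4 with CA-Stat3, and 1 between constructs in mutants. With the numbers crossed, a setting added after seeing the data, the first 6 counts were 20, 27, 27, 29, 3 and 4.

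Groups of 2 and 3 libraries and the totals given above limit what small shifts of a single gene can show, and separate cultures or clutches are not labelled.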
